A study of Mus musculus with 12 samples.

Results

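The 10 genes described here encode alcohol dehydrogenases (Adh1, Adh4 and Adh5) and aldehyde dehydrogenases (Aldh1a1, Aldh1a7, Aldh1b1, Aldh2, Aldh3a2, Aldh8a1 and Aldh9a1). They were chosen by symbol among the 56107 genes of a liver RNA-seq table, each symbol matched 1 row, and all 10 passed the filter that left 11980 genes for testing. The table covers whole livers of 12 mice in 4 groups of 3. Global Lix1l knockout mice fed a high-fat diet are called KO HFD (animals 1, 5 and 6) and WT littermates on that diet WT HFD (animals 1, 2 and 6). Lix1l knockouts fed a low-fat diet are called KO LFD (animals 2, 4 and 5) and WT littermates on it WT LFD (animals 4, 7 and 8). Feeding began at 6 weeks of age and lasted 12 weeks in every group, and the labels give neither strain nor sex. The stated purpose was to learn how the loss of Lix1l, the gene of a putative RNA-binding protein, bears on diet-induced steatohepatitis.

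Alcohol dehydrogenases oxidise alcohols such as ethanol and retinol to aldehydes with NAD as the acceptor, and aldehyde dehydrogenases carry the aldehydes on to acids. The liver is the main site of both steps, and hepatocytes hold most of the enzyme. Family members differ in the compartment they work in and in their main substrate, which ranges from acetaldehyde and retinal to long-chain fatty aldehydes and intermediates of tryptophan and carnitine metabolism.

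Levels are in TPM, a share of the library's transcripts that corrects for transcript length, and the depth of each library is unknown. Lix1l itself did not separate the genotypes as labelled. Its level was 1.92, 0.15 and 1.38 TPM in KO HFD and 1.18, 1.73 and 0.90 TPM in WT HFD, and 0.27, 0.21 and 0.78 TPM in KO LFD against 0.72, 0.58 and 1.08 TPM in WT LFD. Neither contrast passed (limma adjusted p = 0.695 on HFD and 0.716 on LFD). The deleted part of the gene is unknown here, and KO stands for the label throughout. The first principal component, with 38.7% of the variance, set the 3 KO HFD libraries apart. Mitochondrially encoded genes took 22.6% of the TPM in KO HFD animal 1, 12.6% in animal 5 and 10.9% in animal 6, against 7.53% to 11.6% in the other groups. The 10 hepatocyte markers were high in every library, with sums of 71240 to 136669 TPM.

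The 10 genes together made up 0.270%, 0.432% and 0.492% of the TPM in KO HFD, 0.679%, 0.666% and 0.594% in WT HFD, 0.549%, 0.443% and 0.471% in KO LFD and 0.450%, 0.473% and 0.368% in WT LFD. The WT HFD libraries thus held the 3 highest shares and KO HFD animal 1 the lowest. Aldh2 had the highest mean of the 10 in each group, from 1460 TPM in KO HFD to 2264 TPM in WT HFD, followed by Adh1 and Aldh1a1. The ranges of Aldh2 and Adh1 overlapped in both knockout groups and did not overlap in either WT group, while Adh1 and Aldh1a1 did not overlap in any group. Aldh1b1 was the lowest in each group, with means between 4.98 and 25.0 TPM. The order of the 6 genes between them differed between groups, and most neighbours in it overlapped except in WT LFD. In KO HFD, Aldh3a2, Adh5, Aldh8a1, Adh4, Aldh9a1 and Aldh1a7 followed each other with every neighbouring pair overlapping.

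**Figure D1:**
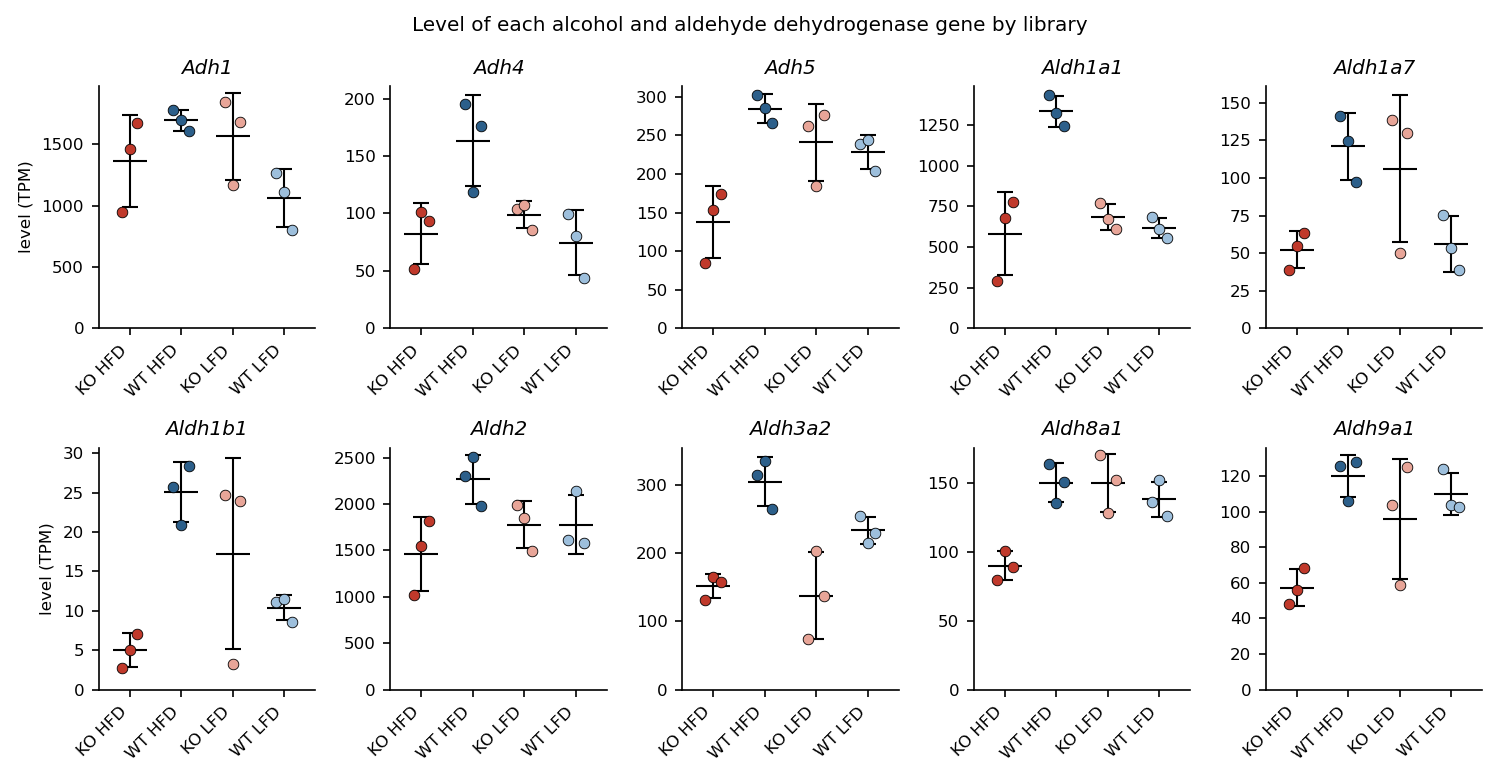
Level in TPM of each of the 10 genes in the 12 libraries, each panel with its own axis from 0. Points are libraries, horizontal lines the mean of 3 and error bars the SD. In KO HFD, 9 of the 10 genes lie below all 3 WT HFD libraries, and Adh1 overlaps.

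The genes sit on 7 chromosomes, and positions are from GENCODE M21 on GRCm38. Adh1 (ENSMUSG00000074207, chr3:138260991-138290698), Adh4 (ENSMUSG00000037797, chr3:138415466-138430892) and Adh5 (ENSMUSG00000028138, chr3:138443093-138455499) lie on the plus strand within 194.5 kb. Lix1l is on the same chromosome, 41.6 Mb from Adh1. Aldh1a1 (ENSMUSG00000053279, chr19:20492715-20643465, plus) and Aldh1a7 (ENSMUSG00000024747, chr19:20692953-20727562, minus) are 49.5 kb apart. The other 5 are Aldh1b1 (ENSMUSG00000035561, chr4:45799022-45804604, plus), Aldh2 (ENSMUSG00000029455, chr5:121566027-121593824, minus), Aldh3a2 (ENSMUSG00000010025, chr11:61223417-61267464, minus), Aldh8a1 (ENSMUSG00000037542, chr10:21377291-21396585, plus) and Aldh9a1 (ENSMUSG00000026687, chr1:167349991-167368532, plus).

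Promoters were read from RefSeq on GRCm38.p6, which matched 9 of the 10 genes (not Aldh2). The 120 bases before the start are shown for the Aldh1a1 and Aldh1a7 pair, whose ratio differed among the KO LFD livers, for Aldh8a1, which holds the same 8-letter word, and for Adh5, a promoter of another kind. Capitals mark CCAAT and ATGCAAAT, the CCAAT box and the octamer. The windows are chr19:20601848-20601967 (plus) for Aldh1a1, chr19:20727557-20727676 (minus) for Aldh1a7, chr10:21377180-21377299 (plus) for Aldh8a1 and chr3:138442973-138443092 (plus) for Adh5. The RefSeq start of Aldh1a1 lies inside the gene's GENCODE span.
Aldh1a1: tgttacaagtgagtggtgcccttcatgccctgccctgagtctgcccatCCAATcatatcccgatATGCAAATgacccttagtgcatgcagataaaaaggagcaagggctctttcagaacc
Aldh1a7: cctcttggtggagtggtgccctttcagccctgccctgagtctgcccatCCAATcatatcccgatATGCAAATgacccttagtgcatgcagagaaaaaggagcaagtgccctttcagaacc
Aldh8a1: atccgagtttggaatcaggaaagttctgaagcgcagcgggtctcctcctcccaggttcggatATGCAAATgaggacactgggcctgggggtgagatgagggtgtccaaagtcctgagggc
Adh5: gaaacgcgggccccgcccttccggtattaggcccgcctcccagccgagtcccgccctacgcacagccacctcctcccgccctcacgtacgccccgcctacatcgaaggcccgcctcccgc
The Aldh1a1 and Aldh1a7 windows have the same base at 105 of 120 positions (87.5%), and at 129 of 250 positions (51.6%) without gaps over the full 250 bases. Both place CCAAT 72 to 68 bases and ATGCAAAT 56 to 49 bases before the start, and Aldh8a1 has ATGCAAAT 58 to 51 bases before it. Searched on both strands of the 250 bases, ATGCAAAT was present in 3 of the 9 promoters and in 1.61% of all 27025. The Aldh1a1 and Aldh1a7 matches lie at the same place in like windows, so they are not independent, and neither are their CCAAT matches there. CCAAT was present in 5 of the 9 and 34.5% of all, TATAAA in 1 of the 9 and 13.0%, and TGACNNNGC, the antioxidant response core, in 1 of the 9 and 10.1%. The motifs were chosen after the sequences had been seen, and CCAAT and ATGCAAAT matches do not overlap here. Adh5 held 21 CpG pairs in 250 bases, against a median of 6 over all promoters, and none of the 4 motifs.

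On HFD, livers labelled knockout had less transcript of 9 of the 10 genes than WT livers, and none had more. The size ranged from 64.5% of the WT HFD mean for Aldh2 to 19.9% for Aldh1b1. Across all genes tested 37.0% passed in this comparison and 25.8% passed as lower. The median change of the 10 genes was -1.04 on the log2(TPM + 1) scale, against -0.25 over all 11980 genes. In bulk liver, fewer cells of a type and less RNA per cell cannot be told apart.

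Among the alcohol dehydrogenases, Adh1, the class I enzyme that oxidises ethanol and retinol, did not pass. Adh1 had 946, 1465 and 1672 TPM in KO HFD and 1781, 1698 and 1609 TPM in WT HFD. KO HFD animal 6 was inside the WT HFD range, and the change was -0.36 ± 0.27 (SE) with a 95% interval of -0.94 to 0.23 (adjusted p = 0.308). Adh4, the class II enzyme found mainly in liver, had 51.7, 101 and 93.6 TPM in KO HFD and 195, 119 and 176 TPM in WT HFD. The groups did not overlap, WT HFD animal 2 lying nearest, and Adh4 fell by 1.01 ± 0.33 on the log2 scale (adjusted p = 0.0339). Adh5, the class III enzyme that oxidises the glutathione adduct of formaldehyde and reduces S-nitrosoglutathione, had 84.8, 154 and 174 TPM in KO HFD and 303, 285 and 266 TPM in WT HFD. All KO HFD libraries were below all WT HFD libraries, and Adh5 fell by 1.11 ± 0.26 (adjusted p = 0.00855).

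Aldh1a1, the cytosolic retinal dehydrogenase, had 291, 678 and 777 TPM in KO HFD and 1435, 1323 and 1246 TPM in WT HFD. The groups did not overlap, and Aldh1a1 fell by 1.31 ± 0.31 on the log2 scale to 43.6% of the WT HFD mean (adjusted p = 0.00835). Aldh1a7, a rodent paralogue of Aldh1a1, had 39.0, 54.8 and 63.0 TPM in KO HFD and 141, 125 and 97.2 TPM in WT HFD. It too did not overlap and fell by 1.21 ± 0.38 (adjusted p = 0.0275). Of the 31-base words in the Aldh1a7 transcripts, 13.8% also occur in those of Aldh1a1, so the split of reads between the pair is uncertain there. Aldh1a1 had 4.70 to 14.3 times the TPM of Aldh1a7 over the 12 libraries. How far shared reads moved the Aldh1a7 level is unknown, and that share of words does not bound it.

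The mitochondrial pair, Aldh2 and Aldh1b1, moved by different amounts. Aldh2, the main acetaldehyde dehydrogenase, had 1023, 1545 and 1813 TPM in KO HFD and 2305, 2510 and 1978 TPM in WT HFD. The groups did not overlap but came close, and Aldh2 fell by 0.67 ± 0.24 on the log2 scale with an adjusted p of 0.0499, just inside the threshold. That call was lost in 9 of 12 fits with 1 library left out and in 7 of 11 other settings, and with median-ratio scaling the change was -0.28. Aldh1b1, a close relative of Aldh2 in the same compartment, had 2.78, 5.07 and 7.10 TPM in KO HFD and 25.8, 20.9 and 28.4 TPM in WT HFD. Every WT HFD library was far above every KO HFD library, and Aldh1b1 fell by 2.18 ± 0.56 (adjusted p = 0.0125), 5.03 times lower by the means. The ratio of Aldh2 to Aldh1b1 TPM was 368, 305 and 255 in KO HFD and 89.4, 120 and 69.6 in WT HFD, without overlap.

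Aldh3a2, the microsomal and peroxisomal fatty aldehyde dehydrogenase, had 132, 166 and 158 TPM in KO HFD and 316, 336 and 265 TPM in WT HFD. Its KO HFD libraries lay close together, and Aldh3a2 fell to 49.8% of the WT HFD mean, with a 95% interval of the log2 change of -1.65 to -0.35 (adjusted p = 0.0221). Aldh8a1, which acts on an aminomuconate semialdehyde in tryptophan breakdown, had 79.7, 101 and 89.3 TPM in KO HFD and 164, 136 and 151 TPM in WT HFD. The groups did not overlap, and it fell by 0.74 ± 0.17 (adjusted p = 0.00887). Aldh9a1, which makes the butyrobetaine from which carnitine is formed, had 48.1, 55.9 and 68.3 TPM in KO HFD and 126, 106 and 128 TPM in WT HFD. It fell by 1.06 ± 0.26 (adjusted p = 0.00952), again without overlap. Groups that did not overlap, with KO HFD lower, were found for 9 of the 10 genes, against 37.3% of all genes tested.

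**Figure D2:**
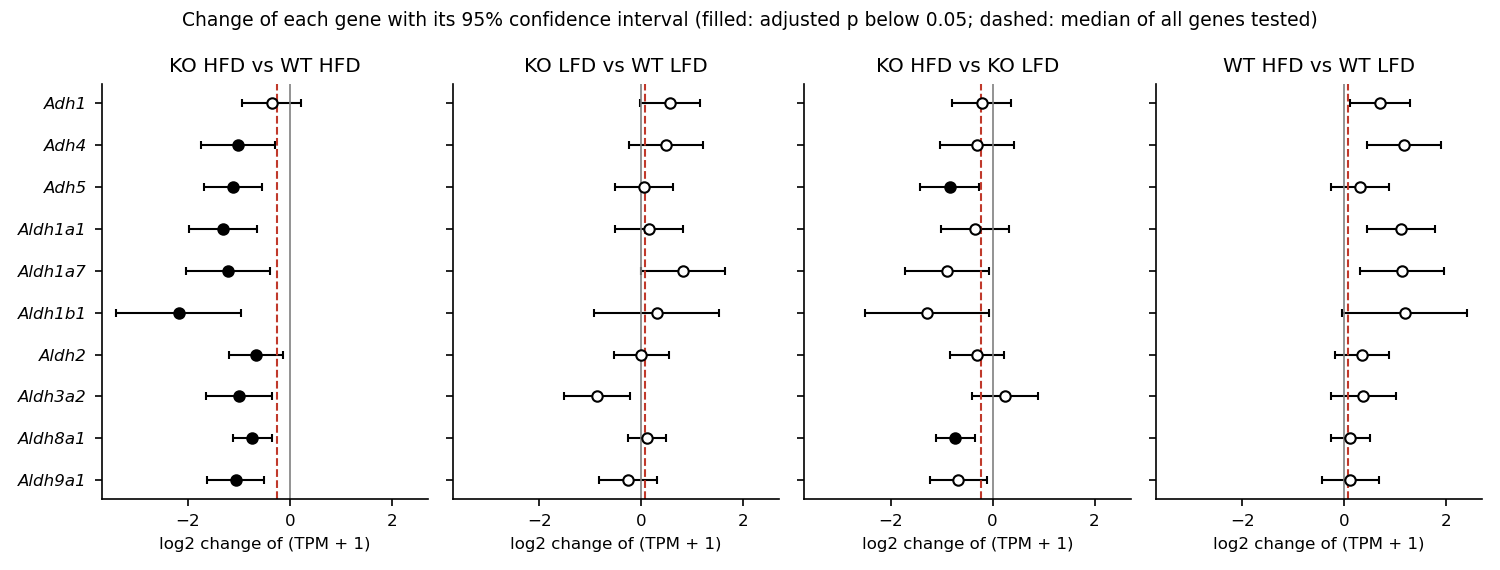
Log2 change of (TPM + 1) of each gene in 4 comparisons, the group named first minus the other, with 95% confidence intervals from limma. Filled points have an adjusted p below 0.05 over all genes, and the dashed line is the median of all genes tested. In KO HFD vs WT HFD 9 points are filled, in KO HFD vs KO LFD those of Adh5 and Aldh8a1, and in the other 2 panels none.

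The count of 9 depended on scaling and on single libraries. With median-ratio scaling, which shifted the median change of all genes by 0.29, the median over the 10 genes was -0.66, against 0.03 over all genes. With quantile normalization it was -0.75, against -0.08. Under either, Adh5, Aldh1a1, Aldh1b1 and Aldh9a1 passed (4 of 10), against 38.4% of all genes in either direction with median-ratio scaling and 39.9% with quantile normalization. These 4 passed as lower, as did 2034 of all 11980 genes with median-ratio scaling and 2668 with quantile normalization. The share of lower genes among all calls was 69.6% as deposited, 44.3% with median-ratio scaling and 55.8% with quantile normalization. Without KO HFD animal 1, the library with the highest mitochondrial share, 4 of 10 passed (Adh5, Aldh1a1, Aldh8a1 and Aldh9a1), against 27.7% of all genes, and without WT HFD animal 1 the count was 5, against 19.6%. Without WT HFD animal 2 the count was 6, against 33.2% of all genes. In a separate fit with no filter on low values it was also 6, against 15.3%. These shares count both directions, while the genes described passed as lower. As lower, 1909 of 11843 genes passed without KO HFD animal 1 and 1490 of 11900 without WT HFD animal 1. Without WT HFD animal 2 it was 2855 of 11907, and with no filter 2401 of 26313. Adh5, Aldh1a1 and Aldh9a1 kept the call in all 12 fits with a library left out and all 11 other settings.

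Markers of other liver cells differed between the genotypes on HFD. Of 11 endothelial markers 10 rose and none fell, with summed levels of 113 to 132 TPM in KO HFD and 40.0 to 54.9 TPM in WT HFD. Of 11 Kupffer cell and macrophage markers 6 rose, with sums of 70.0 to 435 TPM in KO HFD and 28.3 to 78.9 TPM in WT HFD. Of 9 stellate cell and fibroblast markers tested 4 rose, with sums over the 10 listed of 49.1 to 92.6 TPM and 29.4 to 46.7 TPM. Of 3 cholangiocyte markers tested 2 fell, with sums over the 6 listed of 25.9 to 32.4 TPM in KO HFD and 41.3 to 69.2 TPM in WT HFD, and 7 of 10 hepatocyte markers fell, with sums of 84405 to 101326 TPM and 109997 to 112660.3 TPM. The only B, T and NK cell marker tested, Nkg7, did not pass, and no list had a marker at 0 in every library of a group. Of 9 pericentral genes 4 fell and of 10 periportal genes 6 fell, or 3 without WT HFD animal 1. The other counts in this paragraph are from the fit of all 12 libraries, and are not given here with a library left out. Over all genes 4435 passed in that fit and 2327 without WT HFD animal 1. In the fit of all 12 libraries 25.8% of all genes passed as lower and 11.2% as higher. Of all genes tested without WT HFD animal 1, 1490 of 11900 passed as lower. The part of cell composition and of the mitochondrial share in the results above was not tested.

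On LFD, none of the 10 genes differed between livers labelled knockout and WT livers after adjustment. Across all genes 0.159% passed. At an unadjusted p below 0.05 the count was 2, Aldh3a2 and Aldh1a7, in opposite directions. The share of all genes at that unadjusted p is not given here. The median change of the 10 genes was 0.13, against 0.07 over all genes. The summed endothelial, Kupffer cell and macrophage, and stellate cell and fibroblast markers were apart on LFD, although no single marker passed. The cholangiocyte sums overlapped, with 36.1 to 40.8 TPM in KO LFD and 29.2 to 58.3 TPM in WT LFD. The B, T and NK cell sums overlapped too. Endothelial markers summed to 107 to 122 TPM in KO LFD and 56.7 to 69.0 TPM in WT LFD, with a median change of 0.89, close to the 0.96 on HFD. Kupffer cell and macrophage markers summed to 156 to 491 TPM in KO LFD and 62.4 to 118 TPM in WT LFD, with a median change of 1.54 on LFD and 1.72 on HFD. Stellate cell and fibroblast markers summed to 77.4 to 131 TPM in KO LFD and 44.9 to 75.4 TPM in WT LFD, with a median change of 0.78 on LFD and 0.55 on HFD. Hepatocyte markers summed to 71239.7 to 85968 TPM in KO LFD and 97503 to 136669 TPM in WT LFD, without overlap. Their median change was only -0.098 on LFD, against -0.79 on HFD, so the sums do not stand for each marker. The part of cell composition in the LFD values was not tested.

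Aldh3a2 was the only one of the 10 whose LFD groups did not overlap, against 6.35% of all genes lower without overlap, so this count is near the background. Aldh3a2 had 74.0, 203 and 137 TPM in KO LFD and 255, 216 and 230 TPM in WT LFD, a change of -0.87 ± 0.30 (adjusted p = 0.246, and 0.0738 to 0.523 over the alternatives). KO LFD animal 2 had the lowest Aldh3a2 level of the 12 libraries while it had the highest levels of Adh1 and Aldh8a1. Aldh1a7 had 139, 49.8 and 130 TPM in KO LFD and 75.6, 53.6 and 38.9 TPM in WT LFD, with a change of 0.83 ± 0.38 (adjusted p = 0.391). KO LFD animal 4 was inside the WT LFD range and the other 2 above it.

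KO LFD animal 4 also stood below animals 2 and 5 for 5 further genes. Aldh1b1 had 24.7, 3.25 and 23.9 TPM in KO LFD, against 11.1, 11.5 and 8.61 TPM in WT LFD, so that animal 4 was the lowest and the other 2 the highest of the 6 libraries. Aldh9a1 had 104, 58.9 and 125 TPM in KO LFD and 124, 104 and 103 TPM in WT LFD. Adh5 had 262, 184 and 276 TPM in KO LFD and 239, 244 and 204 TPM in WT LFD. In both, animal 4 was below all WT LFD libraries. Adh1 had 1846, 1168 and 1682 TPM in KO LFD and 1268, 1114 and 799 TPM in WT LFD, and Aldh8a1 170.3, 128 and 152 TPM in KO LFD and 136, 152 and 126 TPM in WT LFD. For these genes animal 4 was within the WT LFD range.

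For the remaining 3 genes no single KO LFD library stood apart in the same way. Adh4 had 104, 107 and 85.3 TPM in KO LFD and 99.1, 80.0 and 43.5 TPM in WT LFD. Aldh1a1 had 770.5, 672 and 612 TPM in KO LFD and 685, 608 and 557 TPM in WT LFD, and Aldh2 1992, 1852 and 1491 TPM in KO LFD and 1612, 2144 and 1574 TPM in WT LFD. Their LFD groups overlapped, and the intervals of the change ran from -0.25 to 1.21 for Adh4, from -0.52 to 0.82 for Aldh1a1 and from -0.53 to 0.54 for Aldh2.

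**Figure D3:**
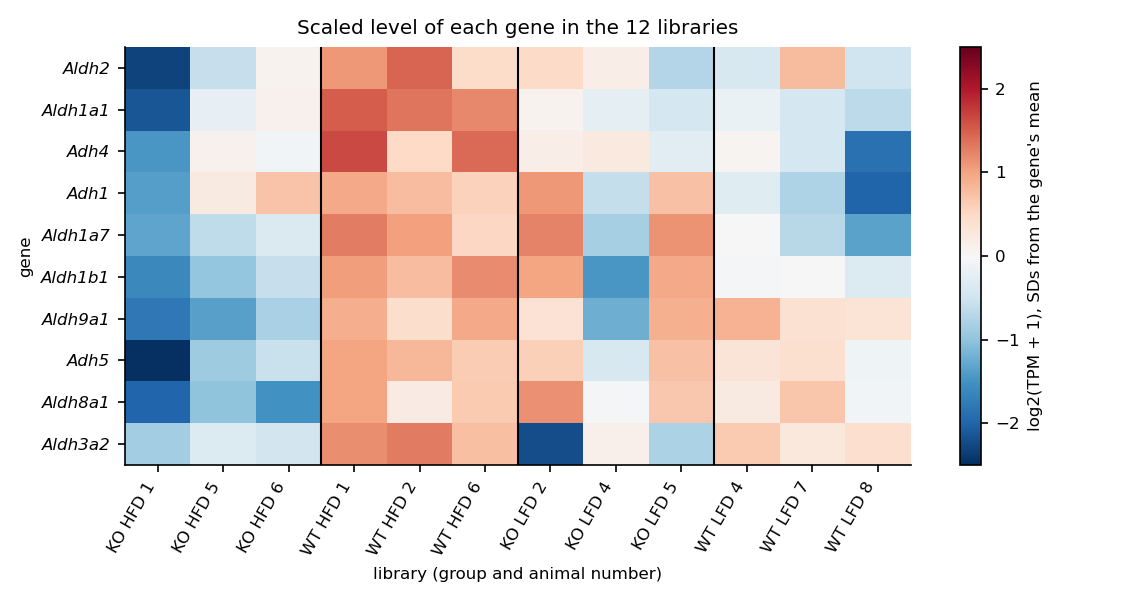
Level of each gene in each library as log2(TPM + 1) in SDs from the gene's own mean, with the 12 libraries in columns by group and animal number. KO HFD animal 1 is the lowest library for 6 genes. KO LFD animals 2 and 4 differ for most genes, and Aldh3a2 is lowest in KO LFD animal 2.

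Between diets within the knockouts, Adh5 and Aldh8a1 were lower in KO HFD than in KO LFD and the other 8 did not pass. Across all genes 23.8% passed, 17.0% as lower. Adh5 fell by 0.85 ± 0.26 on the log2 scale (adjusted p = 0.0372) to 57.1% of the KO LFD mean, and Aldh8a1 fell by 0.73 ± 0.17 (adjusted p = 0.0147) to 59.9%. These 2 were also the only ones whose groups did not overlap, against 27.7% of all genes lower without overlap, so this count is not above the background either. The median change of the 10 genes was -0.51, against -0.22 over all genes. The change was negative for 9 genes, from -1.29 for Aldh1b1 to -0.22 for Adh1, and was 0.25 for Aldh3a2. Without KO LFD animal 4, 5 passed (Adh5, Aldh1a7, Aldh1b1, Aldh8a1 and Aldh9a1), where 24.8% of all genes passed. The same 5 passed with a weight for each library, where 35.0% of all genes did. Without KO LFD animal 2 none passed, against 15.2% of all genes, and a fit of the 2 groups alone gave none, against 6.07%. Without KO HFD animal 1, KO HFD animal 5, KO LFD animal 5, WT HFD animal 1, WT HFD animal 6 or WT LFD animal 8, Aldh8a1 alone passed. In those fits 13.6% to 20.2% of all genes passed.

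Between diets within WT, all 10 genes had a higher mean in WT HFD than in WT LFD, but none passed after adjustment. Their median change was 0.54, against 0.08 over all genes. Across all genes 0.309% passed. At an unadjusted p below 0.05 the count was 4 (Adh1, Adh4, Aldh1a1 and Aldh1a7), and the share of all genes there is not given here. After adjustment the count was 5 in a fit with a weight for each library, a fit that called 21.7% of all genes. It was 2 in a fit of these 2 groups alone, where 1.79% of all genes passed, and 1 without KO HFD animal 1, where 0.507% did. The largest of these differences on TPM were for Aldh1b1, 241% of the WT LFD mean, Adh4, 220%, Aldh1a1 and Aldh1a7, 216% each. On the log2 scale the changes were 1.19 ± 0.56 for Aldh1b1 (adjusted p = 0.428), 1.18 ± 0.33 for Adh4 (adjusted p = 0.178), 1.12 ± 0.31 for Aldh1a1 (adjusted p = 0.168) and 1.13 ± 0.38 for Aldh1a7 (adjusted p = 0.253). Every WT HFD library was above every WT LFD library for 7 genes (all but Aldh2, Aldh8a1 and Aldh9a1), against 15.2% of all genes. With median-ratio scaling and with quantile normalization the changes of Aldh8a1 and Aldh9a1 turned slightly negative.

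In the fit of all 12 libraries the diet response differed by genotype for Aldh1a7 alone among the 10 genes, a call that most fits with a library left out did not keep. The change from LFD to HFD in livers labelled knockout less that in WT was -2.03 ± 0.53 (adjusted p = 0.0397). Of all genes 9.66% passed, 7.12% with a negative sign, so a count of 1 among 10 is near the background. The mean of Aldh1a7 was 52.3 TPM in KO HFD and 106 TPM in KO LFD, against 121 TPM in WT HFD and 56.0 TPM in WT LFD. The same difference was negative for all 10 genes, with a median of -1.04, against -0.31 over all genes. Its unadjusted p was below 0.05 for 8 genes, and the share of all genes at that unadjusted p is not given here. After Aldh1a7 came Aldh8a1 at -0.85 ± 0.25 (adjusted p = 0.0510), Aldh1a1 at -1.46 ± 0.44 (adjusted p = 0.0532) and Adh4 at -1.49 ± 0.47 (adjusted p = 0.0624). Aldh1b1 had the largest value, -2.48 ± 0.79, with an adjusted p of 0.0634. Aldh3a2 had the smallest, -0.13 ± 0.42 with a 95% interval of -1.05 to 0.78 (adjusted p = 0.849), and its sign turned with median-ratio scaling, quantile normalization, library weights and mitochondrial genes left out. The count of 1 was unstable, from 0 without KO HFD animal 5, KO LFD animal 2, KO LFD animal 5, any WT HFD library, WT LFD animal 7 or WT LFD animal 8, to 2 without WT LFD animal 4, 3 without KO HFD animal 6, 5 without KO LFD animal 4 and 8 with library weights. In the fits with a count of 0, 0.202% to 9.70% of all genes passed. All genes passed more often in the fits with a count of 2 or more, at 13.7% without WT LFD animal 4, 14.0% without KO HFD animal 6, 17.2% without KO LFD animal 4 and 40.8% with library weights. The call of Aldh1a7 was lost in 9 of 12 fits with a library left out and without a filter on low values, and was kept without KO HFD animal 6, KO LFD animal 4 or WT LFD animal 4. Without KO HFD animal 1 the 1 gene that passed was Aldh1a1. This difference uses the same 12 libraries as the comparisons above.

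Aldh3a2 was also the gene whose pattern over the 12 libraries was farthest from the others. Likeness was measured as the root mean square distance between profiles of log2(TPM + 1) scaled to mean 0 and SD 1, in SD units. A mean profile is the average of scaled profiles and was not scaled again. Distances to a mean profile are therefore not comparable with distances between single genes. Aldh3a2 was 1.05 from the mean profile of the other 9, Adh1 was next at 0.747, and Adh5 was closest at 0.400. For 8 of the 9 others Aldh3a2 was the farthest gene, and for Aldh9a1 it was Adh1. The closest pairs were Adh5 with Aldh8a1 at 0.427 and Aldh1b1 with Aldh9a1 at 0.434. Aldh1a1 and Aldh1a7, neighbours with like promoters, were not each other's nearest, Aldh2 being nearest to Aldh1a1 at 0.494 and Aldh1b1 to Aldh1a7 at 0.475. The ratio of Aldh1a1 to Aldh1a7 TPM was 7.46, 12.4 and 12.3 in KO HFD, 10.2, 10.6 and 12.8 in WT HFD, 5.55, 13.5 and 4.70 in KO LFD and 9.07, 11.3 and 14.3 in WT LFD. It was low in KO LFD animals 2 and 5 and not in animal 4.

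The 4106 other named genes averaging 10 TPM or more were searched for like profiles. Those nearest to the mean profile of the 10 were Cap1 at 0.246, Cyp2j5 at 0.282, Msra at 0.283, Abhd14b at 0.287 and Cdh2 at 0.291. Nearest to Aldh3a2 were Pex11a at 0.343, Ppara at 0.400, Acot4 at 0.424, Mgll at 0.465 and Sugct at 0.476. Nearest to Aldh1b1 were Cpped1 at 0.187, D10Jhu81e at 0.216, Hsd3b3 at 0.264, Phyhd1 at 0.291 and Akr1e1 at 0.294. All libraries enter these distances, so the distances share depth and composition of the libraries.

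Other members of both families were set beside the 10 on HFD. Of the 4 other alcohol dehydrogenases 2 were tested. Adhfe1, a mitochondrial hydroxyacid-oxoacid transhydrogenase, fell by 1.21 ± 0.34 on the log2 scale, with 19.7, 30.3 and 31.3 TPM in KO HFD and 65.3, 62.1 and 60.9 TPM in WT HFD (adjusted p = 0.0189), a call lost without KO HFD animal 1, WT HFD animal 1 or WT HFD animal 6. Adh7, the class IV retinol-oxidising enzyme of epithelia, stayed between 1.35 and 2.07 TPM on HFD and did not pass, while Adh6a and Adh6b, which lie between Adh1 and Adh4 on the chromosome, reached at most 0.09 and 0.21 TPM. Of 12 other aldehyde dehydrogenases 7 were tested, 5 fell and 1 rose, with a median change of -1.33. Over all genes 25.8% passed as lower and 11.2% as higher. The counts of this list with single libraries left out are not given here. Aldh4a1, which completes proline breakdown, had 0.38, 0.89 and 2.57 TPM in KO HFD and 120, 38.4 and 105 TPM in WT HFD. No KO HFD library came near the WT HFD range, and Aldh4a1 fell by 5.25 ± 0.65 (adjusted p = 0.000709), more than any of the 10 genes.

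Aldh6a1 of valine breakdown fell by 1.51 ± 0.20, Aldh7a1 of lysine breakdown by 1.43 ± 0.26, Aldh1l1 of folate metabolism by 1.33 ± 0.43 and Aldh5a1, the succinic semialdehyde dehydrogenase, by 0.99 ± 0.19. Aldh16a1 rose by 0.98 ± 0.20 (adjusted p = 0.00495), with 61.9 to 67.6 TPM in KO HFD and 28.9 to 36.7 TPM in WT HFD. It was the only tested gene of either family that was higher after adjustment. Aldh3b1, with a mean of 1.01 TPM in KO HFD and 0.417 TPM in WT HFD, did not pass (adjusted p = 0.0670). On LFD none of these 9 genes passed.

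Of the other steps of ethanol and acetate handling, 3 of 4 tested genes fell and none rose. Cyp2e1, the microsomal ethanol oxidase, had 2011, 3997 and 5313 TPM in KO HFD and 8323, 8515 and 7992 TPM in WT HFD, and fell by 1.24 ± 0.34 (adjusted p = 0.0154). Cat, peroxisomal catalase, fell by 0.99 ± 0.22 and Acss3, a mitochondrial acyl-CoA synthetase, by 1.51 ± 0.24. Acss2, which activates cytosolic acetate, had a change of -1.14 ± 0.67 and did not pass (adjusted p = 0.197). Of 11 aldehyde and ketone reductases tested 6 fell and 1 rose. Over all genes 25.8% passed as lower and 11.2% as higher. For the ethanol and acetate steps and the reductases, counts with single libraries left out are not given here. Akr1c13 fell by 2.39 ± 0.31 with means of 16.8 TPM in KO HFD and 88.2 TPM in WT HFD, Akr1c19 by 1.84 ± 0.37 and Akr7a5 by 1.16 ± 0.28, whereas Akr1b8 rose at a low level, with means of 1.28 and 0.310 TPM.

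**Figure D4:**
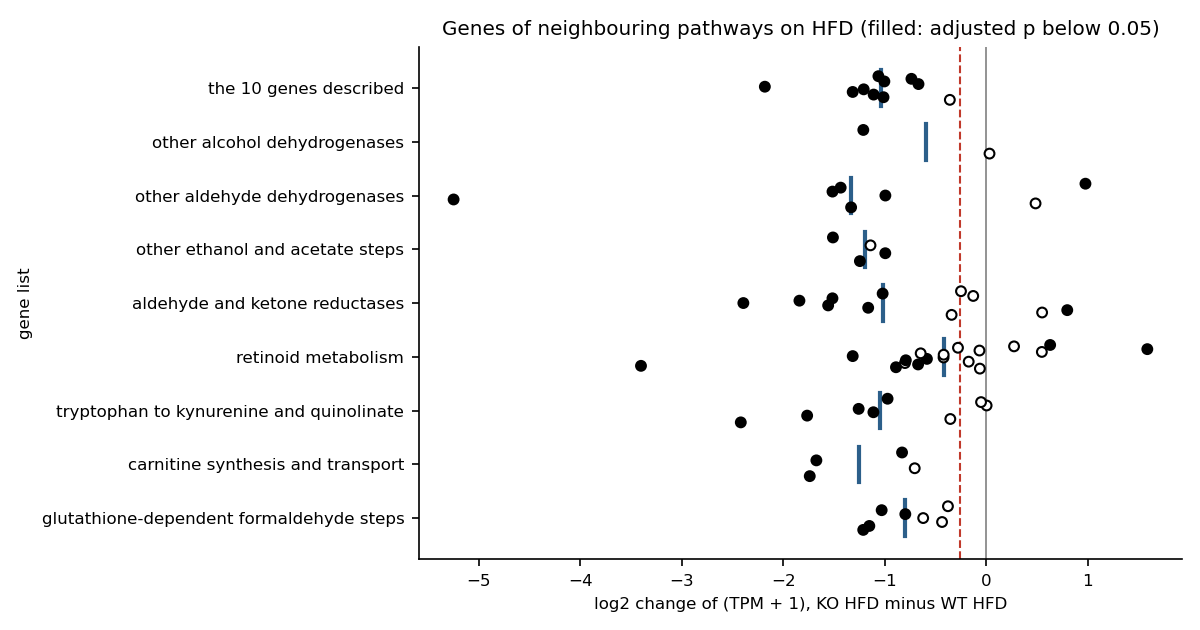
Log2 change of (TPM + 1) in KO HFD minus WT HFD for the 10 genes and for genes of 8 neighbouring lists, 1 point per tested gene, filled where the adjusted p is below 0.05. Blue bars are list medians and the dashed line the median of all genes. Aldh4a1 lies farthest left at -5.25, and Cyp26a1 farthest right at 1.59.

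Of 18 tested genes of retinoid metabolism, the pathway around Adh1 and Aldh1a1, 6 fell and 2 rose, and the median change was -0.42. These counts are near the background, since 25.8% of all genes passed as lower and 11.2% as higher. Rdh9, a retinol dehydrogenase, had 2.35, 2.15 and 5.46 TPM in KO HFD and 53.4, 43.2 and 32.4 TPM in WT HFD, and fell by 3.40 ± 0.44 (adjusted p = 0.000810). Dhrs4, a retinal reductase, fell by 1.31 ± 0.23 and Rdh7 by 0.89 ± 0.20. Cyp26a1, which hydroxylates retinoic acid, had 8.08, 3.46 and 5.71 TPM in KO HFD and 0.91, 1.42 and 1.16 TPM in WT HFD, and rose by 1.59 ± 0.36 (adjusted p = 0.00718). Its LFD levels were 8.60, 5.10 and 3.26 TPM in KO LFD and 0.83, 2.09 and 0.39 TPM in WT LFD, which did not overlap either, and no gene of this list passed on LFD.

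Of 8 genes from tryptophan to quinolinate, the pathway of Aldh8a1, 5 fell and none rose. Tdo2, which opens the tryptophan ring, had 71.2, 164 and 272 TPM in KO HFD and 919, 675 and 796 TPM in WT HFD, and fell by 2.42 ± 0.40 (adjusted p = 0.00212). Afmid, the formamidase that follows, fell by 1.76 ± 0.29, and Kynu and Kmo by 1.26 ± 0.27 and 1.11 ± 0.29. Without WT HFD animal 1, 3 of the 8 passed. Over all genes 25.8% passed as lower in the fit of all 12 libraries. In the fit without WT HFD animal 1, 1490 of 11900 genes did. Of 4 tested genes of carnitine synthesis and transport, the pathway of Aldh9a1, 3 fell, among them Bbox1, which makes carnitine, by 1.74 ± 0.22 (adjusted p = 0.000761) and Slc22a5, the carnitine importer, by 1.67 ± 0.46. That count was 1 without WT HFD animal 1. Of 7 genes of glutathione-dependent formaldehyde and aldehyde handling, the pathway of Adh5, 4 fell, led by Esd, which hydrolyses the Adh5 product, by 1.21 ± 0.22 (adjusted p = 0.00279). This count was 1 without WT HFD animal 1 and 2 without WT HFD animal 6, KO HFD animal 1 or KO HFD animal 5, and with either other scaling or no filter. In those fits 15.3% to 39.9% of all genes passed in either direction.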

How the data were processed

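Poly(A) RNA libraries of 12 frozen livers came from a TruSeq kit, per the labels' protocols. Reads were handled with HISAT2 and StringTie on mm10, per the submitters' processing notes. Their versions and the strand setting are unknown here. The authors deposited TPM for 56107 genes (55487 Ensembl identifiers and 620 assembled loci), so counts and depth are unknown and no counting interval was computed. The authors' group-mean columns matched the means of the library columns within 3.33e-05 TPM, which ties the knockout columns to their labels. Replicates are separately numbered animals, and the labels give no batch.

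Symbols came from GENCODE M21 and matched 55141 identifiers. Values were analysed as log2(TPM + 1), and genes reaching 1 TPM in 3 or more libraries were fitted over all 4 groups with limma 3.58.1 (R 4.3.3, with a trend), 8 residual degrees of freedom and Benjamini-Hochberg adjustment over 11980 genes at 0.05. Changes on this scale understate those of low genes. The procedure was tested on simulated data. The genes described, the lists and the comparisons were chosen with earlier results of these data known. Genes named from a list are the 4 with the lowest p in each comparison, or all tested members of both enzyme families. Where more are given, they were chosen after values were seen.

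Animal numbers did not pair the libraries. Exons of Adh1 and Aldh2 overlap an antisense gene at 6.09% and 2.54% of their bases. Other alternatives were pseudocounts of 0.1 and 5, no filter, a filter of 5 TPM, 2 other scalings, mitochondrial genes left out, only the groups compared, library weights, a robust prior, an animal-number block and each library left out. The same settings for the list counts were added after seeing the data. Figures used matplotlib 3.10.9 in Python 3.11.15.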

Additional observations from a re-analysis of the deposited data

Results flagged for a closer look

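In the fit of all 12 libraries, the diet response of Aldh1a7 in livers labelled knockout differed from that of WT livers by the test of the difference itself. The change from LFD to HFD in knockouts less that in WT was -2.03 ± 0.53 on the log2(TPM + 1) scale (limma adjusted p = 0.0397, and 0.00186 to 0.107 over the alternatives). Aldh1a7 alone of the 10 genes passed, which is near the share over all genes, 9.66%, with 7.12% of a negative sign. The call was lost in 9 of 12 fits with a library left out and without a filter on low values, and was kept without KO HFD animal 6, KO LFD animal 4 or WT LFD animal 4. Its levels were 39.0, 54.8 and 63.0 TPM in KO HFD and 139, 49.8 and 130 TPM in KO LFD, against 141, 125 and 97.2 TPM in WT HFD and 75.6, 53.6 and 38.9 TPM in WT LFD. KO LFD animal 4 was apart from the other 2 knockouts on that diet.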

How the results depend on the processing

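Over the alternatives, 1140 values for single genes were recomputed. The direction and the side of the threshold held in 1011, 59 lost the call, 38 gained one and 32 changed sign, 14 of them in KO LFD vs WT LFD. Shares of all genes passing in either direction are in brackets. The count of genes passing in KO HFD vs WT HFD was 4 with median-ratio scaling (38.4%) and with quantile normalization (39.9%). It was 4 to 9 with single libraries left out (19.6% to 39.2%). In KO HFD vs KO LFD it was 1 with no filter (7.88%) and with median-ratio scaling (27.5%). It was 0 with only the groups compared (6.07%), 5 with library weights (35.0%) and 0 to 5 with libraries left out (13.6% to 24.9%). In WT HFD vs WT LFD it was 2 with only the groups compared (1.79%) and 5 with library weights (21.7%). It was 0 to 1 with libraries left out (0.0084% to 0.817%). For the difference in diet response it was 0 with no filter, 2 with a pseudocount of 5, with mitochondrial genes left out and with a robust prior, 3 with quantile normalization, 5 with the stricter filter, 8 with library weights and 0 to 5 with libraries left out. In KO LFD vs WT LFD it was 0 throughout. Over all genes the counts ranged from 2327 to 7733 (KO HFD vs WT HFD, 4435 as reported), 0 to 71 (KO LFD vs WT LFD, 19), 727 to 4194 (KO HFD vs KO LFD, 2846), 1 to 2598 (WT HFD vs WT LFD, 37) and 24 to 4893 (difference in diet response, 1157). The cause was not tested.

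With the animal-number block the counts were 8, 0, 2, 0 and 1 in the same order. Of all genes 33.5%, 0.0918%, 21.8%, 0.376% and 8.11% passed there. Deviations of same-numbered libraries correlated between -0.255 and 0.102 over 5 pairs.

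With median-ratio scaling the sign turned for Adh1 in KO HFD vs WT HFD (0.024) and KO HFD vs KO LFD (0.10), Adh5 (-0.011) and Aldh2 (-0.061) in KO LFD vs WT LFD, Adh4 (0.000872) and Aldh2 (0.0053) in KO HFD vs KO LFD, Aldh8a1 (-0.010) and Aldh9a1 (-0.0057) in WT HFD vs WT LFD, and Aldh3a2 in diet response (0.31). With quantile normalization it turned for Aldh2 (-0.20) in KO LFD vs WT LFD, Adh1 (0.090) in KO HFD vs KO LFD, Aldh8a1 (-0.041) and Aldh9a1 (-0.040) in WT HFD vs WT LFD and Aldh3a2 in diet response (0.13). With mitochondrial genes left out it turned for Aldh2 in KO LFD vs WT LFD (-0.038) and Aldh3a2 in diet response (0.0084), and with library weights for Adh4 in KO HFD vs KO LFD (0.020) and Aldh3a2 in diet response (0.13).

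With libraries left out, signs turned within -0.053 to 0.24 for Adh5, -0.14 to 1.16 for Aldh1b1, -0.082 to 0.15 for Aldh2 and -0.48 to 0.052 for Aldh9a1 in KO LFD vs WT LFD, -0.41 to 0.027 for Adh1, -0.62 to 0.089 for Aldh1a1 and -0.14 to 0.58 for Aldh3a2 in KO HFD vs KO LFD, and -0.52 to 0.20 for Aldh3a2 in diet response. None of these values had passed.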
